A study of Mus musculus with 14 samples.

Results

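The response of the mouse kidney to 7 days of unilateral ureteral obstruction (UUO) was measured by messenger RNA sequencing in kidneys whose labels name a Smoc2 transgene. These were 7 of the 14 libraries of the series, and they were chosen by label: 3 from untreated kidney of mice labelled SMOC2 Transgenic (called normal here, libraries 1, 3 and 4) and 4 from obstructed kidney of mice with the same label (UUO libraries 1 to 4). The other 7 libraries, 3 normal and 4 UUO, are labelled Wildtype and were used to ask whether the response differed between the labels. They also entered the fit behind the main p-values, through the low-count filter, the scaling and the spread of each gene. All 14 were made from whole kidney. Strain, sex and age were taken from no label, because the one protocol text that gives a strain and a sex describes folic acid treatment of male Balb/c mice, which goes against the treatment labels. The promoter of the transgene and the number of animals behind each library were not given in the sources used here, so each p-value is a statement about how libraries vary, which may be technical.

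In this operation the ureter of one kidney is closed. Urine backs up, pressure in the tubules rises, and tubule cells lose their specialised functions, leave the differentiated state or die, while immune cells enter the tissue and fibroblasts lay down matrix. The healthy kidney is dominated by tubule cells rich in mitochondria that reabsorb salt, glucose, phosphate and amino acids, and proximal tubule cells also make glucose and break down fatty acids and amino acids. SMOC2 is a secreted matrix protein of the SPARC family that binds calcium and has been studied in kidney fibrosis.

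The libraries held 19483994 to 23994849 counts in the normal group and 21584036 to 27670785 in the UUO group. A count above 0 was found for 22219 to 22405 genes in normal and for 24028 to 24799 in UUO libraries. The 10 most abundant genes took 12.93% to 15.73% of the counts in normal and 6.304% to 7.472% in UUO libraries, and mitochondrially encoded genes took 8.108% to 10.04% and 3.539% to 4.522%. A first principal component that separated the groups held 82.7% of the spread over these 7 libraries. The defining kidney genes Lrp2, Slc34a1, Umod, Slc12a1, Slc12a3, Aqp2, Atp6v1b1, Nphs1 and Kdr were all found, in normal and in UUO libraries.

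Smoc2, the gene of the transgene (ENSMUSG00000023886, chromosome 17 from 14279506 to 14404790 on mm10, plus strand), was examined first. Its level was 27.8, 26.8 and 10.6 CPM (counts relative to library size, scaled between libraries by edgeR) in normal libraries 1, 3 and 4, and 123, 89.8, 83.8 and 87.03 CPM in UUO libraries 1 to 4. The lowest UUO library lay above the highest normal library, and normal library 4 was the lowest of all. Smoc2 rose 4.43-fold (log2 fold change 2.15, SE 0.38, edgeR adjusted p = 1.93e-04). In the wild-type libraries it stood at 12.6, 19.7 and 43.3 CPM in normal and 150.3, 131, 158 and 148 CPM in UUO kidney. The libraries labelled transgenic thus did not hold more Smoc2 than the wild-type ones in either state. In normal kidney the ranges overlapped, and in UUO kidney every library labelled transgenic lay below every wild-type one. That difference in level was not tested, and the group is called by its label throughout. The rise of Smoc2 with obstruction differed from that under the wild-type label by -0.39 on the log2 scale (95% interval -1.46 to 0.68, edgeR unadjusted p = 0.448).

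Of 17926 genes tested, 11264 (62.8%) changed at an adjusted p under 0.05, with 5817 (32.5%) higher and 5447 (30.4%) lower after obstruction. At least 2-fold rises were called for 3381 genes (18.9%) and at least 2-fold falls for 2455 (13.7%), and at least 4-fold changes were more often rises (1899 genes, 10.6%) than falls (835 genes, 4.66%). In 5837 genes (32.6%) every UUO library lay above every normal library, and in 5407 genes (30.2%) every UUO library lay below. For 4776 genes (26.6%) the 95% interval of the change lay within 1.5-fold in either direction. With this background a change in a single gene was the usual case, and a list of genes is described below by how its share of rises or falls compares with 32.5% and 30.4%. Among tested list members, 84 lay under 0.423 CPM, the level the low-count filter asks for, in every normal library, and 8 in every UUO library. Such genes were tested only because of other libraries, so their direction was partly fixed beforehand. Shares of rises in lists with many low genes are limited by this. The median gene changed by 0.0365 on the log2 scale, and by 0.152 under upper-quartile scaling between libraries. In whole tissue, fewer cells of a type and less RNA per cell cannot be told apart.

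**Figure D1:**
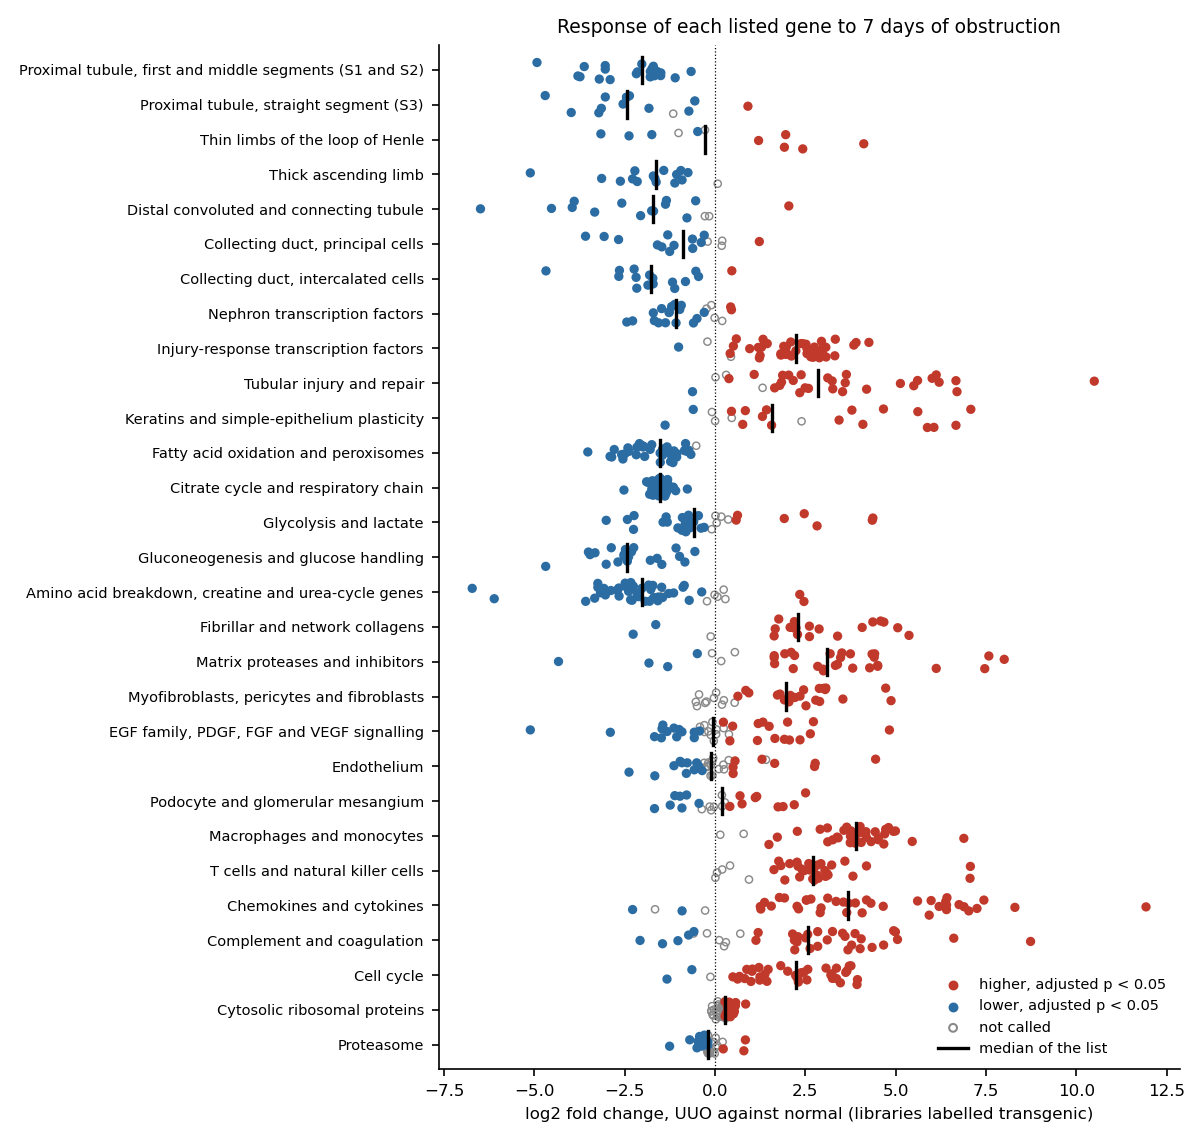
Each point is 1 tested gene of a named list, placed at its log2 fold change between UUO and normal libraries labelled transgenic; red and blue points passed an adjusted p of 0.05 as higher and lower, open points did not, and black bars are list medians. The nephron and metabolic lists lie mostly left of 0 (median -2.03 for the first proximal segments), the immune, matrix and injury lists mostly right of 0 (median 3.89 for macrophages), and the endothelial and podocyte lists on both sides.

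**Figure D2:**
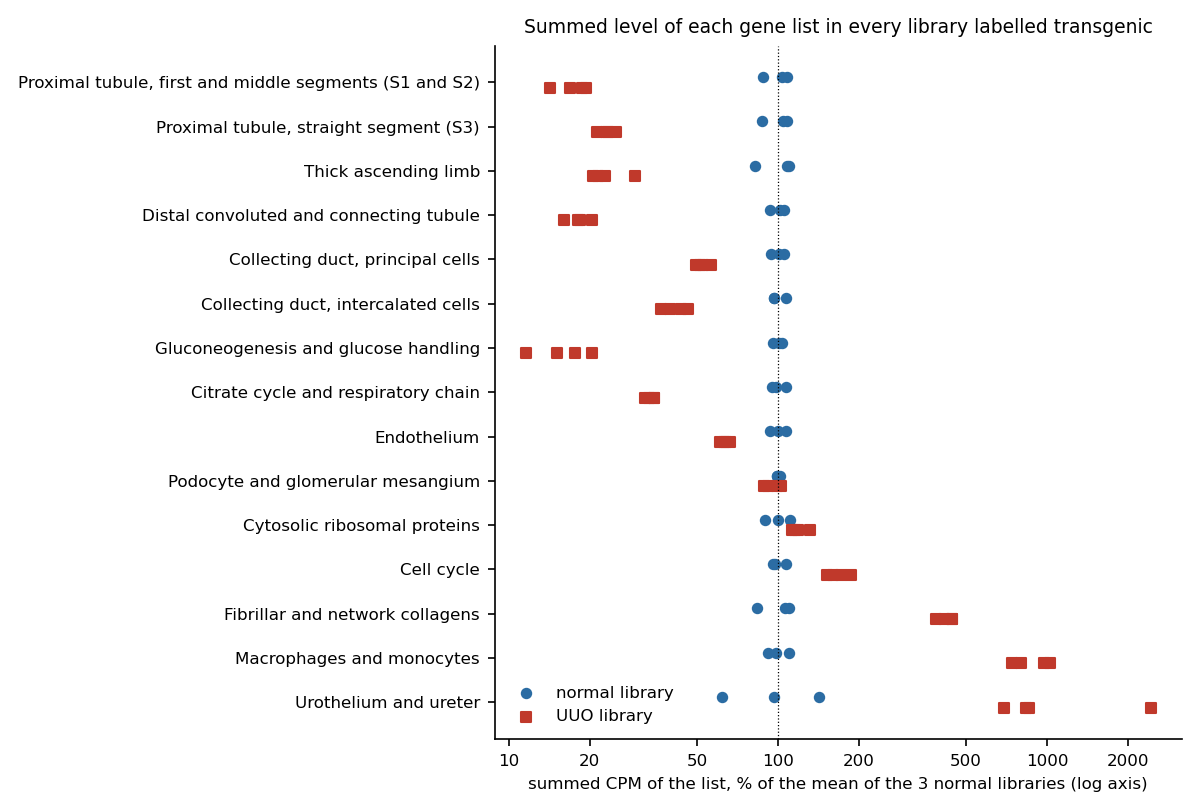
Summed CPM of the tested genes of 15 lists in each of the 7 libraries, as a percentage of the mean of the 3 normal libraries on a log axis; circles are normal and squares UUO libraries. UUO libraries lie left of all normal libraries for the tubule segments, glucose production and handling, the respiratory chain and, with Aqp1 in the sum, endothelium. They lie right of all normal libraries for collagens, macrophages, cell cycle and urothelium, where 1 UUO library stands far to the right.

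Along the nephron most segment lists consisted mainly of genes that fell, though not evenly. In the first and middle segments of the proximal tubule, all 21 listed genes fell, and their summed level was 21280.0 to 26120.0 CPM in the normal libraries and 3427 to 4680.0 CPM in the UUO libraries. Slc34a1, the main sodium-phosphate cotransporter of the brush border, stood at 6888, 6291 and 7908 CPM in normal and 580.2, 729, 1194 and 914 CPM in UUO libraries. The groups did not overlap, and UUO library 1 was the lowest (log2 fold change -3.04, SE 0.39, edgeR adjusted p = 9.86e-06). Lrp2, which encodes the protein uptake receptor megalin, went from 6892, 5153 and 6900.5 CPM to 814, 899.6, 736 and 923 CPM, with every UUO library far below every normal one (log2 -2.90). Its partner Cubn fell by 2.18 on the log2 scale.

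The organic anion transporter genes Slc22a8 and Slc22a6, whose products carry organic acids and drugs from blood into the cell, were among the genes of this segment that fell the most. Slc22a8 was at 1468, 1542 and 1299 CPM in normal and 28.3, 35.99, 81.5 and 42.7 CPM in UUO libraries, and Slc22a6 at 930.4, 1019 and 754 and 23.4, 71.5, 105 and 70.1 CPM, both without overlap (log2 -4.93 and -3.74). The neutral amino acid transporter gene Slc6a19 fell by 3.8 and the second phosphate cotransporter gene Slc34a3 by 3.62. The sodium-bicarbonate cotransporter gene Slc4a4, at 1018, 602 and 911 and 318, 395, 333 and 523 CPM, fell less (log2 -1.10), as did the glucose transporter gene Slc5a2 (log2 -1.79) and the sodium-proton exchanger gene Slc9a3 (log2 -1.71).

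In the straight proximal segment 12 of 15 genes fell and 1 rose. Slc22a7, another organic anion transporter gene, went from 523, 868 and 777 CPM to 37.4, 24.4, 17.3 and 31.8 CPM (log2 fold change -4.70, SE 0.48, edgeR adjusted p = 1.27e-06), again without overlap. Acox2 of bile acid and branched fatty acid oxidation fell by 3.22 and Ggt1, the brush-border glutathione-cleaving enzyme gene, by 2.45 on the log2 scale.

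The thick ascending limb, which dilutes the urine, had 15 of 16 genes lower and none higher. Slc12a1, the sodium-potassium-chloride cotransporter blocked by loop diuretics, stood at 2302, 1401 and 2361 CPM in normal and 304, 208, 205 and 200.1 CPM in UUO libraries (log2 fold change -3.14, SE 0.34, edgeR adjusted p = 2.45e-06). Umod, which encodes uromodulin, the most abundant protein of normal urine, was at 4059, 3639.8 and 4159 and 1757, 1022, 1110.5 and 1095 CPM. It fell less than Slc12a1 (log2 -1.67), and UUO library 1 held the highest UUO level of both genes. Egf, the growth factor precursor of the same segment, showed the largest fall of the list, with 2188, 1280.3 and 2308 CPM in normal and 91.1, 38.3, 36.7 and 56.2 CPM in UUO libraries (log2 -5.11), and Kcnj1, the potassium recycling channel gene, fell by 2.15.

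In the distal convoluted and connecting tubule 13 of 16 genes fell and 1 rose, and the 2 directions met within one calcium transport route. Calcium enters these cells through the channel TRPV5, is carried by calbindins and leaves on the blood side. Calb1, the 28-kilodalton calbindin gene, fell from 662, 503 and 549 CPM to 28.9, 22.1, 19.8 and 28.3 CPM (log2 fold change -4.53, SE 0.30, edgeR adjusted p = 3.45e-08), and S100g, the small calbindin gene, from 352, 344 and 434 CPM to 25.7, 15.6, 24.5 and 35.1 CPM (log2 fold change -3.90, SE 0.24, edgeR adjusted p = 2.40e-08). Trpv5 itself rose, from 31.2, 18.2 and 26.1 CPM to 127, 135, 60.9 and 90.9 CPM (log2 fold change 2.04, SE 0.32, edgeR adjusted p = 7.97e-05). All 4 UUO libraries lay below all 3 normal libraries for both calbindin genes and above them for the channel gene. Klk1, tissue kallikrein, fell by 3.95 and the thiazide-sensitive cotransporter gene Slc12a3 by 1.76 on the log2 scale, and the magnesium channel gene Trpm6 by only 0.78.

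The collecting duct is the site of final water and acid handling. Among principal cell genes 12 of 16 fell and 1 rose. The vasopressin-regulated water channel gene Aqp2 went from 208, 198 and 322 CPM to 17.6, 64.02, 50.8 and 20.3 CPM, with UUO libraries 2 and 3 above libraries 1 and 4 but all below the normal libraries (log2 fold change -2.67, SE 0.49, edgeR adjusted p = 2.71e-04). The exit channel genes Aqp3 and Aqp4 fell by 3.07 and 3.59, while the sodium channel subunit gene Scnn1g fell by 0.63. Intercalated cell genes had 15 of 16 lower. Slc4a1, the chloride-bicarbonate exchanger of acid-secreting cells and also of red cells, was at 82.2, 99.7 and 117 CPM in normal and 3.297, 3.64, 3.04 and 5.64 CPM in UUO libraries (log2 fold change -4.68, SE 0.38, edgeR adjusted p = 1.47e-07). The ammonia transporter gene Rhbg fell by 2.66, the pendrin gene Slc26a4 by 2.19 and the proton pump subunit gene Atp6v1b1 by 1.71. Foxi1, the transcription factor of these cells, fell by 1.12 only.

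The thin limbs of the loop were the exception, with 5 higher and 4 lower of 11, shares not far from those of all genes. Aqp1, the constitutive water channel of proximal tubule and thin limb, fell from 1488, 1549 and 1876 CPM to 358, 309, 325 and 265 CPM, whereas the claudin gene Cldn4 rose from 22.6, 21.6 and 26.5 CPM to 132, 168, 119 and 88.5 CPM (log2 fold change 2.43, SE 0.22, edgeR adjusted p = 4.76e-07). In both genes the groups did not overlap.

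**Figure D3:**
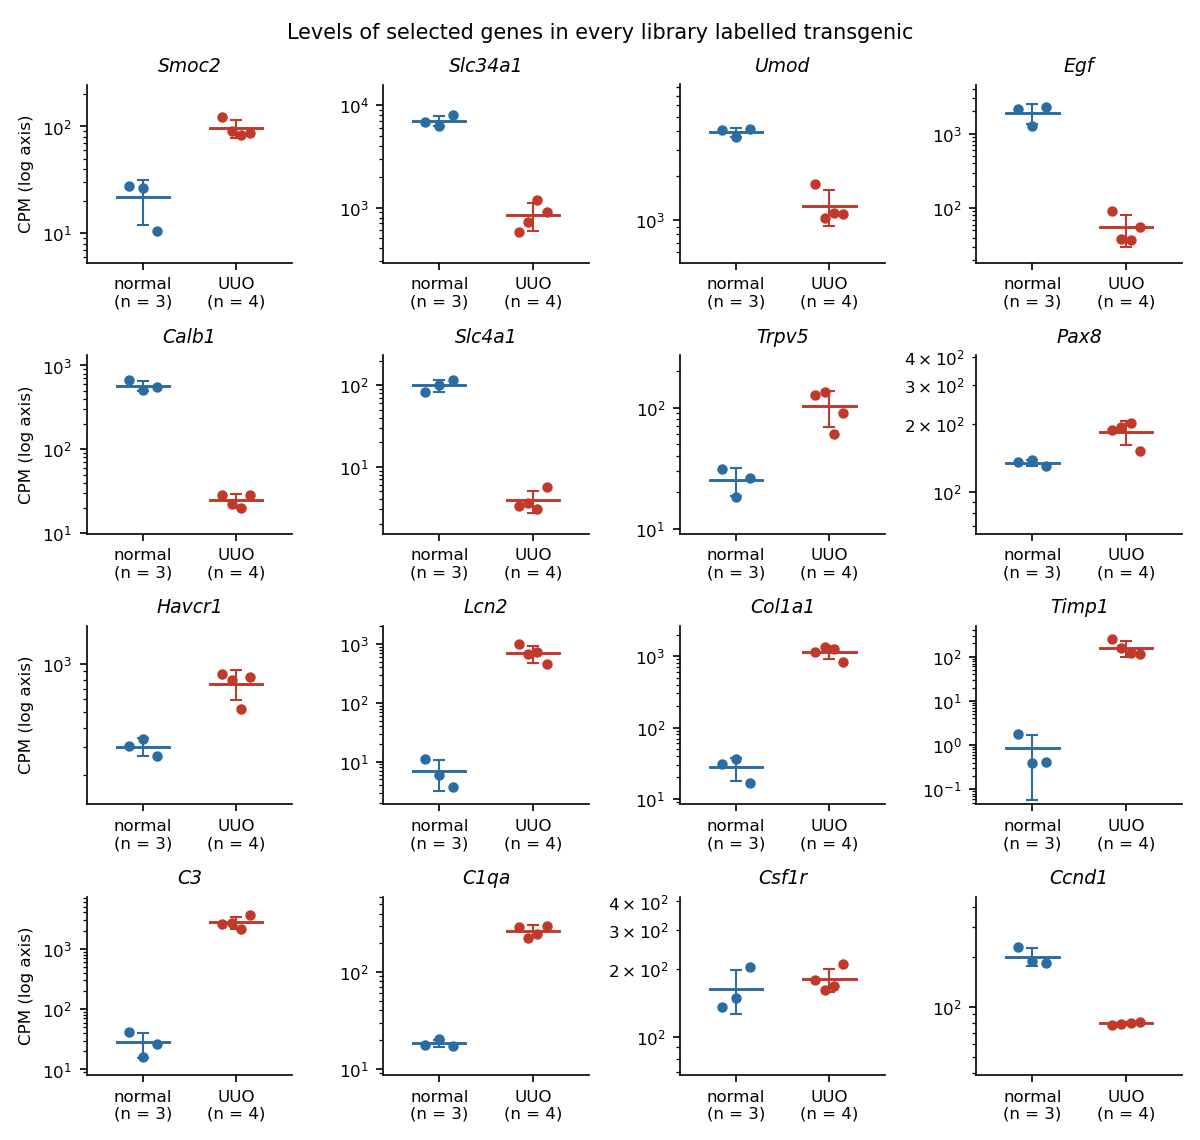
CPM of 16 genes in every normal (blue, n = 3) and UUO (red, n = 4) library labelled transgenic on log axes, with the mean and SD as bars. Egf, Slc34a1, Calb1 and Slc4a1 lie lower and Smoc2, Trpv5, Lcn2, Col1a1, Timp1, C3 and C1qa higher in every UUO library, while the ranges of Csf1r overlap.

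Among transcription factors that define nephron cells, 17 of 23 tested fell and 2 rose. Hnf4a, which drives proximal tubule identity, went from 1171, 1059 and 1155 CPM to 262, 367, 397 and 382 CPM (log2 fold change -1.68, SE 0.20, edgeR adjusted p = 5.07e-06). Esrrb fell by 2.44 and Ppara, the regulator of fatty acid oxidation, by 2.28 on the log2 scale. Pax8, a lineage factor of the whole nephron, rose instead, from 136, 138 and 129.8 CPM to 189, 194, 203 and 151 CPM (log2 fold change 0.45, SE 0.10, edgeR adjusted p = 8.54e-04).

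The motif GTTAAT, part of the site of HNF1 factors, was searched on both strands. Promoters of 2 genes that carry it are shown because both fell strongly: Slc34a1, above, and G6pc, the glucose-6-phosphatase gene of glucose production. The 250 bases before the RefSeq start (build GRCm38.p6) are given 5′ to 3′ on the strand of the gene, with matches on either strand in capitals. The windows are chr13:55399398-55399647 (plus strand) for Slc34a1, with matches that begin 89 and 61 bases before the start, and chr11:101367466-101367715 (plus strand) for G6pc, with a match at 221 bases.
Slc34a1: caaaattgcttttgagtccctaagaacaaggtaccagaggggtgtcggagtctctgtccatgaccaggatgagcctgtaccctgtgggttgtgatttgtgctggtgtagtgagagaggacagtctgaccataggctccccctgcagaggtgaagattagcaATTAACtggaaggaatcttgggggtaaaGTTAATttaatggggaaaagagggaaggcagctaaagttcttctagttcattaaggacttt
G6pc: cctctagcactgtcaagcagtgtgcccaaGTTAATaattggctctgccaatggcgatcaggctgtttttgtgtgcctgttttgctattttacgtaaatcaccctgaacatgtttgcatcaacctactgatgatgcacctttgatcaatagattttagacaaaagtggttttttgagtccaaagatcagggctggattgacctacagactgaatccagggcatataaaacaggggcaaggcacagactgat
The motif was found in the window of 5 of 19 genes of the first proximal list with a window (26.3%). In the list of glucose production and handling it was found for 5 of 16 (31.2%), namely G6pc, Pck1, Khk, Miox and Glyctk. The share over 12669 tested genes with a window was 5.63%. No printed match overlapped one of the other motifs searched here. A match is a description of these letters, not a binding site or a cause.

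Genes of oxidative energy metabolism fell almost as whole sets. None of 43 tested genes of fatty acid oxidation and peroxisomes rose and 41 fell. Acadm, the medium-chain acyl-CoA dehydrogenase gene, was at 2117, 2413 and 2219 CPM in normal and 197, 180.1, 179 and 228 CPM in UUO libraries (log2 fold change -3.52, SE 0.22, edgeR adjusted p = 2.21e-08). Ehhadh and Hao2 of the peroxisome fell by 2.86 and 2.91, and Cpt1a, the gate for fatty acids into mitochondria, by 1.06.

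All 43 genes of the citrate cycle and respiratory chain fell. Ndufs1 of complex I was at 347, 297 and 341 and 92.5, 95.1, 92.8 and 101 CPM (log2 fold change -1.79, SE 0.11, edgeR adjusted p = 1.61e-08), and Cs, citrate synthase, at 411, 373 and 428 and 227, 249, 231 and 242 CPM (log2 -0.77). The UUO libraries of both genes were close together and below every normal library. Pcx, the pyruvate carboxylase that refills the cycle, showed the largest fall (log2 -2.52). Of genes for the mitochondrial ribosome and biogenesis 37 of 44 fell and 1 rose, with Tfam, the packaging factor of mitochondrial DNA, down by 0.78 and Mrpl12 by 1.41 on the log2 scale.

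Genes of glucose production and handling, a list that also holds inositol and fructose genes, were among the sets with the deepest fall. All 21 were lower, with a list median of -2.43 on the log2 scale, beside 0.0365 for all genes. G6pc stood at 513, 623 and 730.4 CPM in normal and 19.2, 18.8, 29.5 and 29.04 CPM in UUO libraries (log2 fold change -4.69, SE 0.36, edgeR adjusted p = 9.19e-08). Pck1, which makes phosphoenolpyruvate, was at 4393, 3665 and 4458 and 105, 287, 642 and 436 CPM, and UUO library 1 held the least and library 3 the most (log2 fold change -3.51, SE 0.55, edgeR adjusted p = 7.25e-05). Miox, which breaks down inositol, fell by 3.46 and Fbp1 by 3.32. In glycolysis 20 of 33 genes fell and 7 rose, and the isoforms parted: Hk2, an inducible hexokinase gene, rose from 0.876, 0.943 and 0.364 CPM to 17.3, 18.01, 14.8 and 9.69 CPM (log2 fold change 4.37, SE 0.31, edgeR adjusted p = 6.07e-08) and Hk3 of myeloid cells from 0.2503, 0.388 and 0.2602 CPM to 5.07, 6.69, 5.33 and 7.87 CPM, while the fructose pathway gene Khk fell by 3.01.

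Of 53 tested genes of amino acid breakdown, creatine and the urea cycle 45 fell. Hpd of tyrosine breakdown went from 544, 639 and 1200.2 CPM to 8.99, 7.92, 17.8 and 11.2 CPM (log2 fold change -6.11, SE 0.70, edgeR adjusted p = 3.52e-06), and Ass1, with which the kidney makes arginine, from 1026, 1076 and 1077 CPM to 72.03, 78.8, 104 and 99.4 CPM (log2 fold change -3.58, SE 0.28, edgeR adjusted p = 1.37e-07). Both groups lay well apart in both genes. The 2 genes that rose work in the other direction, in synthesis: Asns makes asparagine (4.44, 4.21 and 4.42 to 28.1, 27.5, 19.3 and 21.2 CPM, log2 2.46) and Pycr1 proline (0.813, 0.555 and 1.35 to 4.39, 5.503, 5.44 and 3.28 CPM, log2 2.34).

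Among transporters of organic ions, drugs and nutrients 32 of 39 fell. The urate transporter gene Slc22a12 fell by 3.26 and the cation exporter gene Slc47a1 by 1.69 on the log2 scale. The 4 that rose included Abca1 and Abcg1, which export cholesterol. Abca1 was at 57.3, 40.9 and 40.2 CPM in normal and 212, 184, 179 and 239.7 CPM in UUO libraries, without overlap (log2 fold change 2.14, SE 0.16, edgeR adjusted p = 8.35e-08).

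In drug and steroid metabolism 29 of 45 fell and 10 rose. Kap, the androgen-regulated kidney protein gene, had the highest length-scaled level of any gene that fell, with a mean of 52292 TPM (counts per kb of exon, scaled to the same total in every library) in normal and 3689.6 TPM in UUO libraries. In CPM it was at 11110.3, 24736 and 16032 and 978, 617, 491 and 759. The glucuronidation enzyme gene Ugt2b37 rose from 1.13, 0.666 and 0.364 CPM to 28.9, 40.1, 32.9 and 69.2 CPM, which is uncertain because its family holds close copies. Cyp27b1, which activates vitamin D, rose from 6.82, 3.72 and 3.59 CPM to 20.7, 17.3, 24.3 and 23.8 CPM (log2 fold change 2.2, SE 0.26, edgeR adjusted p = 5.93e-06). In the same endocrine group the vitamin D receptor gene Vdr fell by 0.86 and Kl, which encodes klotho, the co-receptor of the phosphate hormone FGF23, went from 1024, 798 and 873 CPM to 136, 149, 142 and 174 CPM (log2 fold change -2.58, SE 0.18, edgeR adjusted p = 5.30e-08). Of 23 tested genes of calcium, phosphate and endocrine function 7 rose and 13 fell, beside 32.5% and 30.4% of all genes.

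Of 31 genes of sodium, potassium and chloride transport 27 fell, including the sodium pump subunit gene Atp1b1 (log2 -1.44) and the sodium-activated channel gene Kcnt1, which went from 75.7, 123 and 100.4 CPM to 2.95, 0.752, 1.41 and 1.46 CPM. The chloride channel gene Cftr rose from 7.63, 9.98 and 11.5 CPM to 26.7, 38.6, 20.7 and 27.3 CPM (log2 fold change 1.54, SE 0.24, edgeR adjusted p = 5.60e-05). In the water, urea and osmolyte list 13 of 20 fell. Nfat5, the transcription factor that answers to salt stress, rose from 196, 194 and 185 CPM to 359, 350.3, 287 and 301 CPM (log2 0.76), while its known target genes Slc6a12 and Slc5a3, carriers of betaine and inositol, fell by 3.13 and 1.44 on the log2 scale.

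Antioxidant, iron and heme genes had 13 higher and 23 lower of 40. Gpx3, a glutathione peroxidase that proximal tubule cells secrete, went down from 31235, 35715 and 34137 CPM to 5974, 5537, 7105 and 7575 CPM, and Hmox1, heme oxygenase 1, rose from 18.2, 22.5 and 18.6 CPM to 46.2, 61.8, 55.2 and 56.05 CPM (log2 fold change 1.47, SE 0.15, edgeR adjusted p = 1.51e-06). Lipid genes had 7 higher and 28 lower of 41, with the desaturase gene Scd1 lower by 2.42 and the lipase gene Lpl by 2.72, and the lipid droplet gene Plin2 higher (26.8, 58.3 and 59.1 to 109, 131, 122 and 117 CPM). Lysosome and autophagy genes had 17 higher and 15 lower of 42, shares not far from those of all genes. The protease gene Ctsd rose from 694, 745 and 794 CPM to 2396, 2713, 2015 and 2265 CPM, while the membrane protein gene Lamp1 fell (log2 -0.65). Cytosolic ribosomal protein genes had 21 of 49 higher and none lower, by small amounts (median log2 0.27). The count was 13 without normal library 1 and 32 under upper-quartile scaling. Rps24 rose the most (log2 0.85).

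In the injured tubule list 28 of 32 genes rose and 1 fell. Lcn2, which encodes the injury marker neutrophil gelatinase-associated lipocalin, went from 11.01, 5.88 and 3.799 CPM to 1005, 661, 719 and 454 CPM (log2 fold change 6.70, SE 0.43, edgeR adjusted p = 3.02e-08). Vcam1, an adhesion molecule of unrepaired tubule cells and endothelium, was at 18.2, 13.2 and 9.42 and 516, 672, 528 and 741 CPM (log2 fold change 5.50, SE 0.30, edgeR adjusted p = 1.01e-08). In both genes the lowest UUO library was more than 10 times the highest normal library. Spp1, which encodes osteopontin, had the largest rise in length-scaled level, from 2033 to 33098 TPM, followed in this list by Clu, a secreted chaperone gene (228 to 4469 TPM).

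Havcr1, the kidney injury molecule 1 gene used as a marker of proximal tubule damage, behaved differently. It was already at 308, 339.6 and 264 CPM in the normal libraries and reached 867, 798, 525 and 832 CPM after obstruction. All 4 UUO libraries lay above all 3 normal libraries, but the change did not pass the test (log2 fold change 1.32, SE 0.76, edgeR adjusted p = 0.148). Fitted with only the 7 libraries labelled transgenic it did (log2 1.33, edgeR adjusted p = 1.30e-04). The wild-type normal libraries, which enter the fit over all 14, were far apart at 145, 11.6 and 4.13 CPM. Without wild-type normal library 1 the difference between the genotype labels passed for Havcr1, with the smaller rise under the transgenic label (interaction log2 -4.04, edgeR adjusted p = 0.0118, against 0.865 with all 14 libraries). Keratin and simple-epithelium genes had 15 higher and 2 lower of 21, with 12 higher in limma-voom. Their summed level overlapped between the groups, with 2293 to 2642 CPM in the normal and 2437 to 3120 CPM in the UUO libraries. The keratin genes of basal urothelium in this list are taken up with the urothelium. Krt18 of simple epithelium rose from 16.5, 16.2 and 22.8 CPM to 201, 264, 206 and 129.6 CPM (log2 fold change 3.43, SE 0.25, edgeR adjusted p = 6.53e-08) and Krt19 by 4.66 on the log2 scale, while Cdh16, the kidney-specific cadherin gene, fell by 0.60.

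Transcription factors of the injury response rose in 40 of 43 cases and fell in 1. Sox9, active in repairing tubule cells, went from 1.19, 0.444 and 0.885 CPM to 15.1, 14.2, 9.89 and 10.9 CPM (log2 fold change 3.90, SE 0.37, edgeR adjusted p = 6.12e-07), and Runx1 from 2.19, 2.44 and 2.39 CPM to 55.5, 54.4, 37.9 and 32.04 CPM (log2 fold change 4.26, SE 0.24, edgeR adjusted p = 1.44e-08). Myc rose to 59.8, 67.2, 54.01 and 53.7 CPM from 6.57, 8.32 and 11.1 CPM. UUO libraries 1 and 2 held more Runx1 and Sox4 than libraries 3 and 4, with Sox4 at 76.3, 69.99, 41.3 and 33.98 CPM against 10.4, 7.65 and 10.5 CPM in normal libraries.

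Matrix genes rose together. Of 21 collagen genes 18 rose and 2 fell. Col1a1, the main chain of fibrillar collagen I, was at 30.4, 35.7 and 16.8 CPM in normal and 1138, 1324, 1279 and 819 CPM in UUO libraries (log2 fold change 5.37, SE 0.46, edgeR adjusted p = 2.52e-07), and Col3a1 at 57.8, 54.02 and 27.6 and 1703, 1649, 1533 and 1292 CPM (log2 fold change 5.06, SE 0.43, edgeR adjusted p = 2.40e-07). The UUO libraries were similar to each other, apart from library 4, which had the least Col1a1. The chains that fell were Col4a3 and Col4a4, which build the mature basement membrane of the glomerular filter and tubule. Col4a3 went from 662, 474 and 385 CPM to 117, 103, 95.02 and 106 CPM and Col4a4 fell by 1.64, whereas Col4a1 of all basement membranes rose by 2.28 on the log2 scale.

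Other matrix proteins had 29 of 35 genes higher and 2 lower. Fn1, fibronectin, went from 145, 164 and 71.9 CPM to 1104, 979.6, 920.1 and 1029 CPM (log2 fold change 2.99, SE 0.24, edgeR adjusted p = 1.55e-07). Tnc, tenascin C of wound matrix, rose from 6.88, 5.71 and 6.61 CPM to 359, 246, 263 and 144 CPM (log2 fold change 5.30, SE 0.40, edgeR adjusted p = 9.17e-08). Eln, elastin, rose by 1.70, and Fras1, which anchors epithelium to its basement membrane, fell by 0.81. The cross-linking enzyme gene Lox was at 3.38, 4.49 and 2.55 and 111, 96.5, 73.8 and 63.9 CPM, and Loxl2 at 10.8, 9.59 and 3.75 and 89.97, 80.5, 91.2 and 75.2 CPM, with UUO above normal in every library of both. Of 20 genes of collagen maturation 16 rose and 1 fell.

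Proteases and inhibitors had 27 of 34 genes higher and 4 lower. Their summed level went the other way, with 5001 to 5425 CPM in the normal and 3991 to 4237 CPM in the UUO libraries. Timp1, the inducible inhibitor of metalloproteinases, rose from 1.81, 0.388 and 0.416 CPM to 247, 159.8, 119 and 117 CPM (log2 fold change 7.58, SE 0.50, edgeR adjusted p = 3.52e-08), and by 8.62 without normal library 1. Timp3, the inhibitor held in healthy kidney matrix, fell from 1172, 1079 and 1124 CPM to 412, 418, 489 and 494 CPM (log2 fold change -1.31, SE 0.16, edgeR adjusted p = 8.52e-06). Mmp2 and Mmp14, which cut matrix at the cell surface, rose by 3.51 and 3.75. The genes that fell were, beside Timp3, urokinase (Plau, log2 -0.49) and the brush-border meprin subunits Mep1a (log2 -1.83) and Mep1b (log2 -4.33). The stromelysin gene Mmp10 had 0 counts in all normal libraries and 1.09, 2.85, 0.671 and 0.689 CPM in UUO libraries, at least 23.5-fold higher against a floor of 3 counts over the normal group (at least 14.5-fold without UUO library 2, the highest), and its relative Mmp3 was at 0.125, 0.111 and 0 and 21.2, 13.6, 9.78 and 12.2 CPM.

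AP-1 is a pair of FOS and JUN family proteins that binds TGANTCA. The windows before the starts of Mmp3 (chr9:7445572-7445821, plus strand) and Mmp10 (chr9:7502092-7502341, plus strand) are shown because these genes of the chromosome 9 metalloproteinase cluster were at or near 0 in normal kidney. The match, in capitals, begins 46 bases before the Mmp3 start and 63 bases before the Mmp10 start.
Mmp3: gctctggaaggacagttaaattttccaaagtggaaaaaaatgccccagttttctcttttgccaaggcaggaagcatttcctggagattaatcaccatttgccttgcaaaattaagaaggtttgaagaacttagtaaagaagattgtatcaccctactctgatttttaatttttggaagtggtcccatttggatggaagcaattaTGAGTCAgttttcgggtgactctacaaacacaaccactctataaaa
Mmp10: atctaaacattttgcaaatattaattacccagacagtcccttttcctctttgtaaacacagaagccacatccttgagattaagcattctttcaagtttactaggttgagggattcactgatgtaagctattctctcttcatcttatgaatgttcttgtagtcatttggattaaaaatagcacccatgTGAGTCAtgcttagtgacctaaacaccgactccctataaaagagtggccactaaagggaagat
Of 21 protease and inhibitor genes with a window 7 held the motif on either strand (33.3%), as did 9 of 25 genes of the injury list (36.0%), against 6.05% of all genes with a window. Neither printed match overlapped another motif searched.

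Myofibroblast, pericyte and fibroblast genes had 22 of 32 higher and none lower. Acta2, smooth muscle actin, went from 35.8, 43.3 and 35.2 CPM to 180.004, 266, 247 and 178 CPM (log2 fold change 2.52, SE 0.23, edgeR adjusted p = 5.43e-07). Pdgfrb of pericytes rose from 53.1, 74.6 and 36.4 CPM to 307, 281, 269.5 and 258 CPM (log2 fold change 2.35, SE 0.25, edgeR adjusted p = 1.97e-06) and Thy1 from 3.32, 2.27 and 1.87 CPM to 72.6, 52.5, 83.01 and 52.4 CPM. None of the 4 UUO libraries overlapped the normal ones in these genes.

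Signalling genes were less uniform. TGF-beta ligands, receptors and targets had 26 higher and 4 lower of 36. Tgfb1, the profibrotic ligand, rose from 17.7, 22.2 and 18.01 CPM to 112, 104, 91.9 and 82.2 CPM (log2 fold change 2.34, SE 0.16, edgeR adjusted p = 4.68e-08), and Tgfbr2, its receptor, by 1.48 on the log2 scale. Bmp7, an opposing ligand made by tubule cells, fell from 80.97, 65.4 and 95.1 CPM to 24.3, 21.4, 28.4 and 26.8 CPM (log2 fold change -1.67, SE 0.16, edgeR adjusted p = 5.78e-07), and Itgb8, an integrin chain that activates TGF-beta, fell by 1.32. EGF, PDGF, FGF and VEGF genes split into 15 higher and 14 lower of 40, near the shares of all genes. Pdgfb rose by 2.06, while Fgf1 fell from 373, 388 and 349 CPM to 31.3, 61.5, 48.4 and 57.3 CPM and Vegfa, which keeps capillaries alive, from 386, 454 and 471 CPM to 139.9, 137, 136 and 134 CPM (log2 fold change -1.68, SE 0.10, edgeR adjusted p = 1.69e-08). Wnt, Notch and hedgehog genes had 19 higher and 5 lower of 43, with Wnt4 up from 1.81, 3.27 and 2.71 CPM to 37.9, 22.4, 27.4 and 14.8 CPM and the ligand gene Shh down from 2.06, 1.77 and 1.25 CPM to 0.187, 0.673, 0.6005 and 0.365 CPM.

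Among vasoactive and renin-angiotensin genes 10 higher and 11 lower of 28 were called, again near the background. Edn1, the vasoconstrictor endothelin 1, rose from 3.38, 3.11 and 3.33 CPM to 66.1, 50.04, 48.4 and 40.1 CPM (log2 fold change 3.97, SE 0.29, edgeR adjusted p = 7.36e-08), and Ace, which makes angiotensin II, fell from 630.4, 509 and 829 CPM to 117, 96.3, 83.6 and 119 CPM (log2 fold change -2.66, SE 0.30, edgeR adjusted p = 3.60e-06). Endothelial genes had 8 higher and 11 lower of 33, also not far from the background. The summed level of the list was 3051 to 3500.0 CPM in the normal libraries and 1999 to 2168 CPM in the UUO libraries, but Aqp1, which proximal tubule cells also make, is part of that sum with 1488, 1549 and 1876 CPM in normal and 358, 309, 325 and 265 CPM in UUO libraries. Without Aqp1, a choice made after the values were seen, the sum was 1564, 1951 and 1396 CPM in normal and 1736, 1760.0, 1844 and 1734 CPM in UUO libraries, and the groups overlapped. Kdr, the VEGF receptor, fell from 89.7, 93.7 and 73.4 CPM to 37.04, 40.2, 34.97 and 43.3 CPM (log2 fold change -1.14, SE 0.12, edgeR adjusted p = 1.66e-06), and the adhesion gene Icam1 rose from 26.8, 34.99 and 26.2 CPM to 176, 187, 219 and 220.2 CPM (log2 fold change 2.77, SE 0.17, edgeR adjusted p = 1.97e-08). The median change of this list was -0.12, 0.00 under upper-quartile scaling and 0.06 without normal library 3.

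Podocyte and mesangial genes had 9 higher and 7 lower of 23, shares not far from those of all genes. In the slit diaphragm between podocytes Nphs1, nephrin, fell, from 49.3, 46.3 and 43.8 CPM to 16.5, 20.1, 19.4 and 22.8 CPM (log2 fold change -1.24, SE 0.15, edgeR adjusted p = 5.64e-06). Kirrel, of the same junction, rose from 15.5, 15.9 and 11.3 CPM to 79.2, 68.4, 58.95 and 53.3 CPM (log2 fold change 2.19, SE 0.25, edgeR adjusted p = 3.05e-06), and Tcf21, a factor of podocytes and stroma, by 1.88 on the log2 scale.

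Immune cell genes rose with few exceptions. Among macrophage and monocyte genes 35 of 37 tested rose, and their summed level was 2014 to 2418 CPM in the normal libraries and 16180.0 to 22450.0 CPM in the UUO libraries. C1qa, a complement subunit made by tissue macrophages, was at 17.5, 20.1 and 17.2 CPM in normal and 295, 226, 250.05 and 301 CPM in UUO libraries (log2 fold change 3.87, SE 0.14, edgeR adjusted p = 2.20e-09), and Ccr2, the receptor of incoming monocytes, at 4.88, 3.11 and 2.498 and 115, 65.6, 69.3 and 116 CPM (log2 fold change 4.72, SE 0.28, edgeR adjusted p = 1.69e-08). UUO libraries 1 and 4 held more Ccr2 than libraries 2 and 3, and library 4 had the most Adgre1 (42.8, 42.3, 31.5 and 63.1 CPM, from 3.38, 1.83 and 2.29 CPM). Csf1r, the macrophage growth factor receptor, did not follow, at 135, 149.5 and 204 and 179, 162, 169 and 209.9 CPM with overlapping groups (log2 0.14, 95% interval -0.17 to 0.45, edgeR adjusted p = 0.4, and a rise of 0.34 at adjusted p = 0.0497 without normal library 4).

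T cell and natural killer genes had 32 of 37 higher and none lower, with a list median of 2.72 on the log2 scale. Their summed level rose less, from 83.85 to 93.74 CPM in the normal libraries to 165.1 to 221.9 CPM in the UUO libraries. With at least 50 counts in 3 libraries only 26 were tested, and 22 were higher. Cd3e of the T cell receptor went from 0.688, 0.499 and 0.885 CPM to 3.48, 3.37, 5.33 and 4.95 CPM (log2 fold change 2.62, SE 0.48, edgeR adjusted p = 3.03e-04) and Cd4 from 1.69, 1.39 and 2.45 CPM to 8.43, 7.48, 9.64 and 15.3 CPM. B cell and plasma cell genes had 18 of 26 higher and none lower. Of neutrophil, mast, dendritic and basophil genes 17 of the 19 tested rose and 1 fell. In that list 12 of 31 genes failed the filter on low counts, among them the granule genes Elane, Mpo and Camp. The neutrophil collagenase gene Mmp8 had 0 counts in normal libraries and 1.21, 6.02, 1.73 and 1.14 CPM in UUO libraries, at least 44.8-fold higher (at least 24.1-fold without UUO library 2, which stood far above the rest), and the mast cell tryptase gene Tpsb2 fell from 0.813, 1.33 and 2.71 CPM to 0.155, 0.119, 0.459 and 0.284 CPM, with normal library 4 the highest.

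Chemokines and cytokines had 38 of 42 tested genes higher and 2 lower. The rises include genes such as Il1f6, below, that could pass the low-count filter only through libraries other than the normal ones. Cxcl1, which calls neutrophils, went from 1.19, 0.277 and 0.2602 CPM to 41.02, 39.7, 50.4 and 57.3 CPM (log2 fold change 6.41, SE 0.39, edgeR adjusted p = 1.90e-08, and 7.43 without normal library 1), and Ccl2, which calls monocytes, from 1.25, 0.333 and 0.416 CPM to 36.7, 31.8, 29.6 and 28.3 CPM (log2 fold change 5.61, SE 0.40, edgeR adjusted p = 6.07e-08, and 6.38 without normal library 1). In both genes normal library 1 held the highest normal level and every UUO library was far above it. Il1f6, the gene of interleukin 36 alpha, was at 0 in all normal libraries and at 20.7, 24.2, 14.9 and 20.6 CPM after obstruction, at least 357-fold higher. The genes that fell were Cxcl12, a retention signal for leukocytes (369.6, 379 and 351 to 74.7, 76.2, 85.3 and 65.1 CPM, log2 fold change -2.28, SE 0.27, edgeR adjusted p = 5.30e-06), and Il15 (16.1, 19.3 and 17.4 to 8.15, 10.5, 10.6 and 8.23 CPM, log2 fold change -0.91, SE 0.13, edgeR adjusted p = 3.35e-05).

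NF-kappa-B, the main inflammatory transcription factor, binds, in one of its forms, GGGA and TTTCC with any base between them. The Cxcl1 window (chr5:90890995-90891244, plus strand) holds a match 71 bases before the start, in capitals.
Cxcl1: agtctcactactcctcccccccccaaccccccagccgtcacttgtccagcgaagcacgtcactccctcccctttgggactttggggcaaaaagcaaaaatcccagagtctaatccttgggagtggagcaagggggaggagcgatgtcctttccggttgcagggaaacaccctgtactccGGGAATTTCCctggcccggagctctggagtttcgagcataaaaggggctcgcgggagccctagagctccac
Of 30 chemokine and cytokine genes with a window 5 held this motif on either strand (16.7%), namely Cxcl1, Cxcl2, Il6, Csf1 and Il16, against 0.497% of all genes with a window.

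Complement and coagulation genes had 28 higher and 5 lower of 39, with 3 lower without normal library 1 or UUO library 2. C3, the central complement protein, rose from 41.4, 16.2 and 26.9 CPM to 2574, 2656, 2099 and 3642 CPM (log2 fold change 6.61, SE 0.40, edgeR adjusted p = 1.99e-08), and its receptor C3ar1 from 1.88, 0.832 and 1.301 CPM to 48.3, 39.1, 38.7 and 49.8 CPM (log2 fold change 5.05, SE 0.22, edgeR adjusted p = 3.72e-09). The complement inhibitor gene Cd59a and the anticoagulant gene Proc fell by 0.59 and 2.08 on the log2 scale. Fga, fibrinogen alpha, rose from 28.5, 30.7 and 41.7 CPM to 220.4, 144, 81.6 and 171 CPM, and Fgb from 0.0626, 0 and 0.156 CPM to 41.4, 34.2, 18.3 and 42.6 CPM. UUO library 3 held the least of both fibrinogen genes and still lay above every normal library.

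Interferon response and antigen presentation genes had 33 of 38 higher and none lower. Cd74, the invariant chain of class II molecules, rose from 192, 203 and 183 CPM to 2116, 1875, 1735 and 2980.4 CPM (log2 fold change 3.50, SE 0.23, edgeR adjusted p = 3.25e-08), with UUO library 4 the highest. B2m, the light chain of class I molecules, rose by 1.24 on the log2 scale. The proteasome activator genes Psme1 and Psme2, which serve antigen presentation, rose by 0.80 and 0.84, in a proteasome list that had otherwise 17 of 34 genes lower, a count that went down to 6 under upper-quartile scaling and to 9 without normal library 3.

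The interferon-stimulated response element, read here as GAAA and GAAAC with any 2 bases between them, is where STAT and IRF factors bind. The window of Gbp2, a guanylate-binding protein gene of the interferon list, which went from 11.1, 14.3 and 10.8 CPM to 98.1, 116, 91.2 and 157 CPM (log2 3.26), is shown as an example (chr3:142620413-142620662, plus strand), with the match, on the other strand, in capitals 60 bases before the start.
Gbp2: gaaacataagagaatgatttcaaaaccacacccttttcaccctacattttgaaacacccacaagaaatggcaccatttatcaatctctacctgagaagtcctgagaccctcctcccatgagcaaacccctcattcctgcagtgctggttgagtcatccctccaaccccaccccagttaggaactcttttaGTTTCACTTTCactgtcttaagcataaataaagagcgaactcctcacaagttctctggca
It was found in 9 of 29 genes of the list with a window (31.0%), against 0.884% of all genes with a window.

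Cell cycle genes rose in 37 of 40 cases. Mki67, a marker of cycling cells, went from 6.51, 7.43 and 4.79 CPM to 72.8, 94.6, 70.6 and 89.3 CPM (log2 fold change 3.71, SE 0.24, edgeR adjusted p = 3.19e-08), and Top2a, the topoisomerase of dividing cells, from 5.32, 3.22 and 1.93 CPM to 47.02, 64.5, 42.9 and 55.5 CPM (log2 fold change 3.93, SE 0.26, edgeR adjusted p = 3.74e-08). The UUO libraries stood close together in both genes, with library 2 the highest. The 2 genes that fell were the G1 cyclin genes Ccnd1, at 229, 188 and 184 and 77.9, 79.1, 79.97 and 81.3 CPM (log2 fold change -1.33, SE 0.18, edgeR adjusted p = 1.63e-05), and Ccnd3, at 99.7, 99.05 and 112 and 63.2, 71.5, 71.4 and 59.5 CPM (log2 fold change -0.64, SE 0.09, edgeR adjusted p = 1.76e-05). Arrest and death genes had 34 higher and 5 lower of 45, with 3 lower without normal library 3. Cdkn1a, the p21 inhibitor, rose from 15.2, 12.6 and 9.26 CPM to 51.3, 49.7, 46.7 and 29.5 CPM (log2 fold change 1.85, SE 0.26, edgeR adjusted p = 2.35e-05), and the inflammatory caspase gene Casp4 from 2.75, 1.94 and 0.677 CPM to 24.4, 21.4, 20.1 and 22.7 CPM. Bcl2l1, which protects from death, fell by 0.65 on the log2 scale.

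Promoters of genes of late cell cycle phases often carry CCAAT boxes, bound by NF-Y, near a cell cycle homology region, TTTGAA. The windows of Top2a (chr11:99024190-99024439, minus strand) and Mki67 (chr7:135716380-135716629, minus strand) are shown because these genes rose together. Capitals mark both motifs, on either strand.
Top2a: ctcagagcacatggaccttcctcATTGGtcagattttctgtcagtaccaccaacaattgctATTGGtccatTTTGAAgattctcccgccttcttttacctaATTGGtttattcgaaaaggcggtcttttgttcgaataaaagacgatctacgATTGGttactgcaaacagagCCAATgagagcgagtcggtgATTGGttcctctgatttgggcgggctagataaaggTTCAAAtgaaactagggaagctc
Mki67: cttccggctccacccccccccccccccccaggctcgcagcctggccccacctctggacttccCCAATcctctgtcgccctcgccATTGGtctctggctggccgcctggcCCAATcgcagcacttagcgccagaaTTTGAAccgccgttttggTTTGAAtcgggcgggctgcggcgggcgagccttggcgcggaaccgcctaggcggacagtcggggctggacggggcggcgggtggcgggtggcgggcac
The Top2a window held 6 CCAAT boxes and 2 homology regions, and the Mki67 window 3 and 2. Of 30 cell cycle genes with a window 23 held a CCAAT box (76.7%) and 10 a homology region (33.3%), against 39.3% and 13.4% of all genes. Windows of all genes with a match to another motif at overlapping bases numbered 45 for CCAAT and 46 for TTTGAA, and no printed match was among them.

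Endoplasmic reticulum stress and secretion genes showed no common direction, with 8 higher and 6 lower of 31, beside 32.5% and 30.4% of all genes. The number of rises was 4 without normal library 1, 5 without normal library 4 and 5 without UUO library 1. Herpud1, a degradation factor gene of the stressed reticulum, fell from 449, 428 and 532 CPM to 98.7, 109.5, 111 and 121 CPM (log2 fold change -2.09, SE 0.22, edgeR adjusted p = 1.98e-06). Heat shock genes had 4 higher and 13 lower of 21. Hspb1, a small chaperone gene, rose from 9.699, 17.5 and 14.2 CPM to 152, 158, 134 and 88.9 CPM (log2 fold change 3.27, SE 0.30, edgeR adjusted p = 4.43e-07), and Hspa1b, an inducible HSP70 gene that has a close copy, fell from 32.5, 52.96 and 53.6 CPM to 17.8, 20.6, 14.9 and 9.94 CPM. Clock genes had 4 higher and 8 lower of 21, with a share of falls not far from that of all genes. The repressor gene Nr1d1 fell from 172, 155 and 172 CPM to 46.5, 53.7, 46.8 and 39.2 CPM (log2 fold change -1.84, SE 0.24, edgeR adjusted p = 1.30e-05) and the output factor gene Hlf from 195, 141 and 197 CPM to 14.9, 20.03, 32.6 and 31.3 CPM (log2 fold change -2.85, SE 0.33, edgeR adjusted p = 4.52e-06), while Csnk1e, a kinase gene of the clock proteins, rose by 1.33. The hour of dissection was not given in the sources used here.

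Junction and claudin genes had 16 higher and 6 lower of 32, beside 32.5% higher and 30.4% lower of all genes. Cldn6, normally low in adult kidney, rose from 3.07, 3.11 and 2.65 CPM to 39.6, 21.1, 22.3 and 17.4 CPM, and Cdh3, P-cadherin, from 16.6, 9.71 and 9.003 CPM to 113, 112, 84.2 and 87.96 CPM (log2 fold change 3.08, SE 0.21, edgeR adjusted p = 4.63e-08), while Cldn2 of the leaky proximal tubule fell by 0.45 on the log2 scale. Cilia and cystic disease genes had 3 higher and 8 lower of 25, and 8 higher under upper-quartile scaling. In the main fit the share of falls was near the 30.4% of all genes, and that of rises under 32.5%. Pkd2, a channel gene of the primary cilium, fell from 407, 327 and 463 CPM to 177, 190.2, 162 and 185 CPM (log2 fold change -1.16, SE 0.13, edgeR adjusted p = 3.17e-06). Foxj1, the master factor of motile cilia, which the adult mouse kidney tubule lacks, rose from 0.2503, 0.166 and 0.677 CPM to 40.9, 28.5, 29.99 and 17.7 CPM (log2 fold change 6.27, SE 0.53, edgeR adjusted p = 2.14e-07, and 7.12 without normal library 4).

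Histone and chromatin genes had 17 higher and 6 lower of 28, beside 32.5% higher and 30.4% lower of all genes. Uhrf1, which maintains DNA methylation in dividing cells, rose from 3.504, 2.88 and 2.65 CPM to 23.1, 30.7, 28.4 and 30.9 CPM (log2 fold change 3.23, SE 0.17, edgeR adjusted p = 9.83e-09), and the mitochondrial deacetylase gene Sirt3 fell from 81.9, 84.9 and 101 CPM to 20.4, 21.2, 28.4 and 27.2 CPM (log2 fold change -1.88, SE 0.14, edgeR adjusted p = 7.93e-08). Long non-coding RNAs had 11 higher and 2 lower of 21. Dnm3os, the host transcript of profibrotic microRNAs, rose from 1.13, 1.39 and 0.781 CPM to 23.1, 14.1, 10.6 and 10.8 CPM (log2 fold change 3.74, SE 0.33, edgeR adjusted p = 3.73e-07), and the growth arrest transcript Gas5 rose by 0.79.

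Markers of tissues next to the kidney were followed because they could be carried over in dissection. Of urothelium and ureter genes 10 of 11 tested rose, and their summed level was 6.32 to 14.5 CPM in the normal libraries and 70.6 to 247 CPM in the UUO libraries. Upk1b, an uroplakin gene of bladder and pelvis lining, was at 1.38, 0.388 and 1.301 CPM in normal and 7.87, 38.05, 10.9 and 12.98 CPM in UUO libraries, and Krt5 of basal urothelium at 0.188, 0.0555 and 0.468 and 9.73, 33.3, 11.2 and 12.004 CPM. UUO library 2 was the highest in both, by over 2-fold, and without it the log2 changes went from 4.09 to 3.37 and from 6.06 to 5.47. Without normal library 4 the change of Krt5 was 7.07. Limma-voom called 3 genes of the list and neither of these (limma-voom adjusted p = 0.076 and 0.0717), and without UUO library 2 edgeR called 9. The part of this lining in the keratin rises was not tested.

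The lists for other tissues were short. Adipose markers had 1 higher and 0 lower of 6 tested, adrenal 1 higher and 1 lower of 3, skeletal muscle 0 higher and 4 lower of 7, pancreas, liver and spleen 0 higher and 3 lower of 5, blood 2 higher and 3 lower of 9 and nerve, mesothelium and lymph node 3 higher and 1 lower of 9. The fallen muscle genes included Pvalb, which the distal tubule also makes (129.8, 118 and 99.4 to 2.83, 0.396, 0.6005 and 1.09 CPM). The transthyretin gene Ttr stood at 0.751, 71.04 and 1.197 CPM in normal and 0.0311, 0, 0 and 0.0406 CPM in UUO libraries, so that its level was high in normal library 3 alone (log2 -10.03, and -5.41 without that library).

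**Figure D4:**
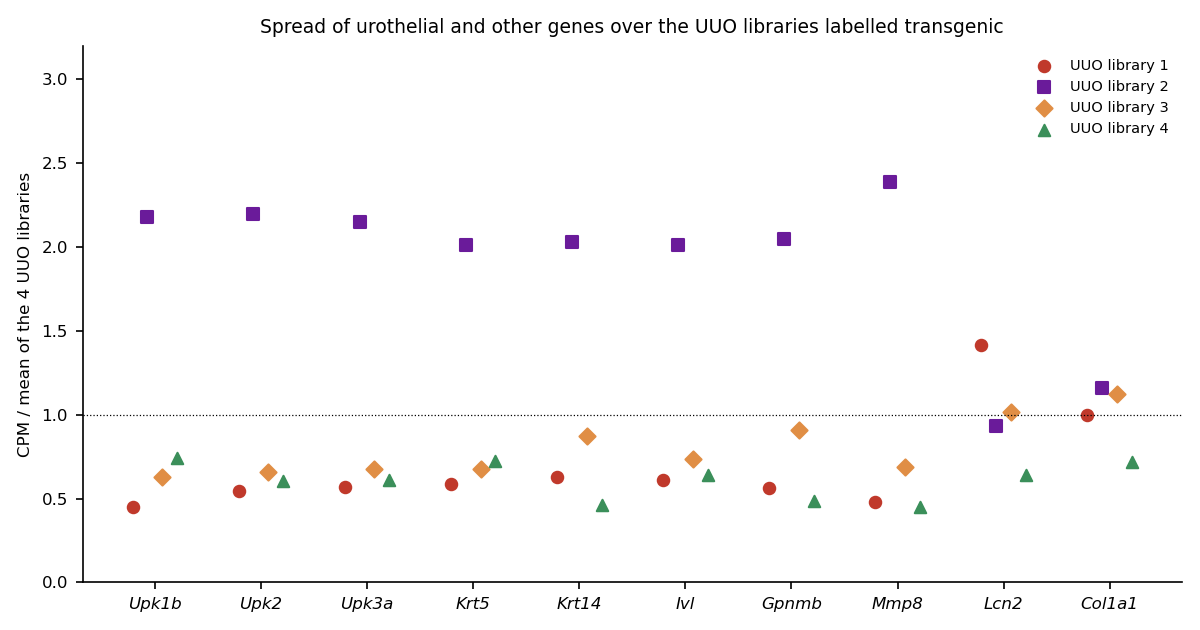
CPM of 10 genes in each of the 4 UUO libraries labelled transgenic, divided by the mean of these libraries. UUO library 2 lies above 2 for the uroplakin genes Upk1b, Upk2 and Upk3a and for Krt5, Krt14, Ivl, Gpnmb and Mmp8, and near 1 for Lcn2 and Col1a1.

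The lists held 1645 genes in all, of which 1575 passed the filter on low counts and 70 did not. In 84 of the tested members every normal library lay under 0.423 CPM, the level the filter asks for, and in 8 every UUO library did, so that these passed the filter through the other group, where they had to differ, or through wild-type libraries. Overall 33 genes of the whole table had 0 counts in every normal library and at least 10 in every UUO library, and Hrg alone showed the reverse. Beside those above, they included Defb36, a defensin gene (3.08, 4.08, 3.39 and 2.27 CPM, at least 56.9-fold higher), Cdh17, a cadherin gene of gut epithelium (2.39, 1.82, 1.84 and 2.27 CPM, at least 36.9-fold), and Saa1, an acute phase gene with a close copy (2.83, 1.31, 3.28 and 6.12 CPM, at least 60.1-fold).

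The response under the transgenic label was set against that under the wild-type label, which shares no library with it. Both came from the fit of all 14 libraries, with a common filter and spread per gene, so their calls are not independent. In wild-type kidney 10950 genes changed (61.1%), with 5603 (31.3%) higher and 5347 (29.8%) lower. Of the genes changed under the transgenic label, 9555 changed in the same direction under both (84.8% of these and 87.3% of the wild-type calls), 5 in opposite directions, and 1704 under this label only. The difference itself was tested as an interaction and passed for 0 of 17926 genes (0%) in edgeR, with 1154 genes (6.44%) at an unadjusted p under 0.05, and DESeq2 called 25, among them C3ar1, Fst and Fras1. A call under one label alone is not a tested difference.

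**Figure D5:**
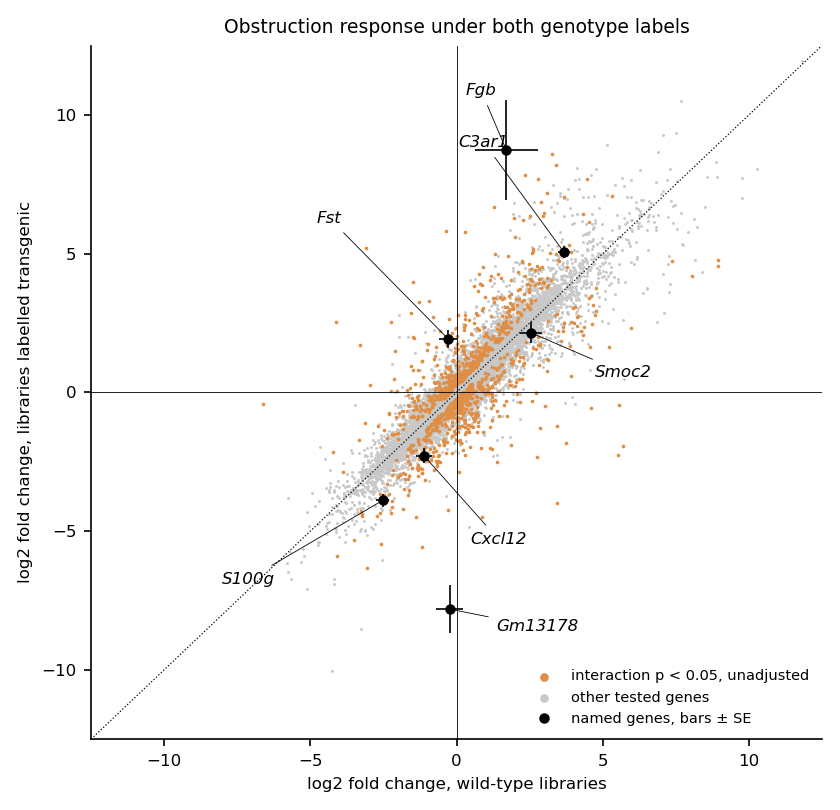
Log2 fold change of each tested gene with obstruction in libraries labelled transgenic (vertical) against wild-type libraries (horizontal); orange points have an unadjusted interaction p under 0.05, black points are named genes with SE bars, and the dotted line marks equal change. The cloud follows the line, and no gene passed the adjusted test of the difference in the edgeR fit by group with the low-count filter.

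Genes that stood off the line are given as values, since none passed in the edgeR fit by group of all 14 libraries with the low-count filter. Fst, which encodes the activin inhibitor follistatin, was at 19.1, 15.6 and 25.5 and 74.9, 69.005, 59.8 and 100.3 CPM under the transgenic label, a log2 change of 1.92 beside -0.28 under the wild-type label (interaction unadjusted p = 1.96e-04, edgeR adjusted p = 0.483). The predicted gene Gm13178, at 3.63, 4.55 and 1.41 CPM in normal and 0.0311, 0, 0 and 0 CPM in UUO libraries labelled transgenic, had the smallest p of the interaction (unadjusted p = 4.86e-06, edgeR adjusted p = 0.0871), with a wild-type log2 change of -0.23. Both were chosen after their values were seen, and their calls moved with the setting. Under other settings edgeR called the interaction of Gm13178 without the low-count filter (adjusted p = 0.00663), with the replicate block (0.0445) and without normal library 4 (0.0316) or wild-type UUO library 4 (0.0315), and that of Fst without wild-type UUO library 2 (0.0191). Fgb had log2 changes of 8.73 and 1.70 under the transgenic and wild-type labels (unadjusted p = 0.00804, adjusted p = 0.638), the former being 9.95 without normal library 4. Tnc rose by 5.30 under the transgenic and 3.84 under the wild-type label on the log2 scale (interaction unadjusted p = 0.00808, edgeR adjusted p = 0.638). S100g changed by -3.90 and -2.53 (unadjusted p = 9.13e-04, adjusted p = 0.506), and Cxcl12 by -2.28 and -1.12 (unadjusted p = 0.00856, adjusted p = 0.642). C3ar1 rose by 5.05 and 3.67 (unadjusted p = 2.58e-04, adjusted p = 0.483). In DESeq2 the interaction of Gm13178, Fst, C3ar1 and S100g passed (adjusted p = 3.89e-06, 0.00444, 0.0154 and 0.0432).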

How the data were processed

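Whole-kidney messenger RNA of 14 libraries was measured, 7 of them compared here. RNA came from frozen kidney and libraries from a stranded TruSeq mRNA kit, per the labels' protocols. The deposited values are raw counts per gene. STAR 2.4.1d and featureCounts 1.4.4 on mm10 are named in the submitters' processing notes. The strand setting and annotation were not given in the sources used here, so 42 of the 195 printed genes, which overlap a gene on the other strand (Slc34a1, Col4a1 and Nr1d1 among them), are uncertain, as are genes with near-identical copies.

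Counts of all 14 libraries were fitted by group with edgeR 4.0.16 in R 4.3.3 (TMM scaling, filterByExpr, quasi-likelihood test, Benjamini-Hochberg adjustment at 0.05), after a test on simulated data. The SE was the log2 change over the root of F. Alternatives were another scaling or filter, DESeq2 1.42.0, limma-voom (limma 3.58.1), a replicate block, the 7 libraries alone and each library left out. Genes were named by role, size of change in their list, a change against most of their list, level or detection in one group. Others were named for a large spread over the 4 UUO libraries labelled transgenic. Lists, genes and promoters were chosen with earlier results of these data known, and Gbp2, Fst and Gm13178 after their values were seen. Of 47729 genes 47310 matched the annotation used for names and lengths. Promoter windows and sequences are from RefSeq (GRCm38.p6). Depth limits low genes: 3 counts in the normal group set the floor for a gene at 0. Some genes are not reported here.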

Additional observations from a re-analysis of the deposited data

Results flagged for a closer look

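In 13 of 195 printed genes (6.67%) 1 of the 4 UUO libraries stood apart from the other 3 by a gap, relative to the range, above Dixon's 95% critical value. That share is near the rate such a value lets through when no library stands apart. Some printed genes were also named for their large spread over these same libraries. UUO library 2 was the high one for 6 of them. These were the uroplakin genes Upk1b at 38.05 CPM, Upk2 at 13.5 CPM and Upk3a at 16.2 CPM, with Krt5 at 33.3 CPM, Ivl at 33.6 CPM and Mmp8 at 6.02 CPM. UUO library 1 was the highest for Smoc2 at 123 CPM, Slc12a1 at 304 CPM and Umod at 1757 CPM, and the lowest for Cdh16 at 941 CPM. It was also the highest for Gm13178, at 0.0311 CPM, a level near the floor, the other 3 libraries being at 0. UUO library 3 was the lowest for Col4a1 at 1784 CPM, and UUO library 4 the highest for Mep1a at 641 CPM.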

How the results depend on the processing

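The count of changed genes stayed within 1.5 times 11264 under every alternative run, from 9891 with at least 50 counts in 3 libraries to 11414 under upper-quartile scaling, which gave 6805 higher and 4609 lower. Leaving out 1 library labelled transgenic gave 10180 to 10900 changed genes and a Smoc2 change of 1.82 to 2.36. The interaction, called for 0 genes, was called for 1 without the low-count filter (Gm13178), 25 in DESeq2 (Fst, Gm13178, C3ar1 and S100g among them) and 1 with the replicate block (Gm13178). It was called for 0 to 2 genes with 1 library left out: Gm13178 without normal library 4 or wild-type UUO library 4, Fst without wild-type UUO library 2, Havcr1 without wild-type normal library 1, and genes not printed here without normal library 1 or wild-type UUO library 1. The cause of these differences was not tested. Whether replicate numbers pair the libraries could not be decided. Correlations of deviations were 0.028, 0.0709 and 0.0153 for same-numbered libraries labelled transgenic, and -0.0818 to 0.0271 for the other combinations. Each same-numbered value was the highest for its normal library. Under the wild-type label the same-numbered values were -0.0898, -0.0315 and -0.0155. Such small values from so few libraries neither show nor exclude a pairing. The replicate block called 10353 genes and 1256 listed and named genes, against 1292 without it, and gave Smoc2 a change of 2.26 and the interaction 1 call. Of 2900 values of 194 single genes under the alternatives, 2892 kept direction and call. Krt14, Krt5, Upk1b and Upk2 lost their call in limma-voom, Upk2 also without normal library 3, and Havcr1 and Upk3a gained one in the fit of 7 libraries and Csf1r without normal library 4. B cell genes called higher went from 18 of 26 tested to 10 of 15 with at least 50 counts in 3 libraries, and stress genes of the endoplasmic reticulum from 8 to 4 of 31 with the replicate block.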
